A study of Mus musculus with 27 samples.

Results

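Collagens are the matrix proteins built from 3-stranded helices of alpha chains, and each chain has its own gene. The chains of types I, II, III, V and XI, with the later described XXIV and XXVII, assemble into fibrils. Type IV chains form the sheet-like network of basement membranes, the thin matrix on which endothelium rests and which surrounds smooth muscle cells. Type VI chains make beaded filaments, type VII makes the anchoring fibrils beneath epithelia, type VIII makes short-chain networks of vessel walls, and the chains called FACITs decorate the surface of fibrils. Types XV and XVIII are vascular basement membrane collagens whose ends can be cut off as antiangiogenic fragments, endostatin in the case of XVIII.

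The family was taken as every gene whose symbol is Col, a number, a and a number, named by matching the array's transcript accessions to RefSeq. Of 44 such mouse symbols, 42 had a probe, out of 37208 genes or transcripts measured in all. Col6a3 and Col12a1 had no match and are not analysed here. Where a gene had several probes, the probe with the highest mean over all arrays was used, and 28 of the 42 genes had a single probe. The rule itself uses no measured difference between groups, but it was set with earlier results of these data known.

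RNA came from mouse ESCs of the A2lox line in which a doxycycline (DOX)-inducible cassette for Flag-tagged dnFOS sits at the Hprt locus. The dnFOS peptide is a dominant-negative FOS that dimerizes with JUN proteins and keeps AP-1, the FOS and JUN transcription factor family, from DNA. All 13 groups carried the cassette, so that DOX without dnFOS was not measured and the 2 cannot be told apart. The line came from picked clones grown on mouse embryonic feeder cells.

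ESCs were differentiated as EBs for 3.75 days and FLK1+ cells, which include the hemangioblast, were purified and used at once (FLK1+) or put into blast culture with or without 1 µg/ml DOX. Complete cultures were taken after 5 h (FLK1+ 5h) or 24 h (d1 BC), with DOX for 5 h or 1 day. Vascular smooth muscle (SM), early hemogenic endothelial (HE1, KIT+TIE2+CD41-), late hemogenic endothelial (HE2, KIT+TIE2+CD41+) and hematopoietic progenitor cells (HP, KIT+TIE2-CD41+) were sorted from later blast culture, untreated or with DOX for 2 days. Each group had 2 one-colour Agilent arrays except untreated SM with 3, which makes 27, and their number limits the precision. The labels do not say that replicates were separate cultures, so p-values measure only the spread between these samples. In complete cultures, fewer cells of a type and less RNA per cell cannot be told apart.

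Levels are log2 signal intensities minus the 75th percentile of the array, so 0 is that percentile and 1 unit is a factor of 2. A level of one gene is not compared with that of another, because probes differ in brightness. Comparisons took in the genes whose probe stood well above background throughout 1 or both of the groups. A gene was called when the limma p-value, adjusted by Benjamini and Hochberg over all those genes, was under 0.05 and the change was 2-fold or more. The standard error (SE) is that of the log2 difference, and adjusted p-values are those of limma throughout.

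The percentage of probes well above background ran from 47.0 to 89.6 over the arrays, with 89.6 on untreated SM replicate 2. Hprt, whose locus holds the cassette, was higher with DOX in all 6 populations with no overlap, by 2.65-fold in FLK1+ 5h and 12.3-fold in d1 BC. All 8 endothelial markers on the list used were well above background on every HE1 and HE2 array, and all 8 hematopoietic markers on every HP array. Of 10 smooth muscle markers, 8 or 9 were well above background on each SM array. These counts do not tell the populations apart. On both untreated HE1 arrays 8 smooth muscle markers were well above background too. So were all 8 endothelial markers on both untreated HP arrays and all 8 hematopoietic markers on both untreated HE2 arrays. The SM arrays were of 2 kinds. The mean level of endothelial markers was 1.35 on untreated SM replicate 2 and 1.1 on DOX-treated SM replicate 2, against -1.28, -1.01 and -1.20 on the other SM arrays. Cdh5, the endothelial cadherin, was at 4.34 and 4.74 on those arrays and between -1.38 and -0.41 on the others. The mean of 5 pluripotency markers was -2.79 and -3.50 on those arrays and 0.43, 0.15 and -0.14 on the others, with Dppa5a at -2.68 and -2.08 against 3.35 to 4.26. The HE1 replicates differed in 9 fibroblast and feeder cell markers, whose mean was -0.94 and -2.57 in replicates 1 and 2 without DOX and -0.53 and -1.87 with DOX. The part of these differences in the collagen values was not tested.

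The members share no single promoter feature among those searched. RefSeq windows on GRCm38.p6, from 250 bases before to 50 after each gene start, were at hand for 34 members, 37 windows in all. The AP-1 motif TGANTCA was found on either strand in 7.81% of 32851 windows of all genes and in 1 of the 37, that of Col6a1. The related motif TGACGTCA was in 1.79% of all windows and in that of Col24a1. GGAATG, the core bound by TEAD factors, was in 14.7% of all windows and in those of Col3a1, Col4a6, Col6a2, Col18a1 and Col20a1. A match is a string of letters, not a measured binding site.

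The upstream parts of 4 windows are shown, those of the paired X-linked type IV genes and of Col6a1, which the results with DOX turn on, and that of Col3a1, which had the largest difference between untreated populations. Capitals mark a motif match, TGANTCA in Col6a1 and the reverse complement of GGAATG in Col3a1. Each sequence runs 5′ to 3′ along the strand of its gene. Col4a5 lies on the plus strand at chrX:141475169-141475369, Col4a6 on the minus strand at chrX:141474096-141474326, Col6a1 on the minus strand at chr10:76726045-76726294 and Col3a1 on the plus strand at chr1:45311288-45311537. The match in the window of Col4a6 lies outside the run shown.
Col4a5: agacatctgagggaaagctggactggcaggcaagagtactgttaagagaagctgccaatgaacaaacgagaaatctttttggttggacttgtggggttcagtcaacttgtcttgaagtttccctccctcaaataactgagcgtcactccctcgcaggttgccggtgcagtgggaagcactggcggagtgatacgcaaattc
Col4a6: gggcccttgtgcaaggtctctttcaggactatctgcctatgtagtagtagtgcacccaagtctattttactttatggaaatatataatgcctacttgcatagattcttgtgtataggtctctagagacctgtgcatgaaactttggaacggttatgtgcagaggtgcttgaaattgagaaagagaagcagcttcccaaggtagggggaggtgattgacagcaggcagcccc
Col6a1: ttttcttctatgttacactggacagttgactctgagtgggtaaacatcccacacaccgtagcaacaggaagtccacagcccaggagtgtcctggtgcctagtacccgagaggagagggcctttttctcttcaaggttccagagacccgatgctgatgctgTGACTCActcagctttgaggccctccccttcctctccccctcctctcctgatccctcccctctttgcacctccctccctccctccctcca
Col3a1: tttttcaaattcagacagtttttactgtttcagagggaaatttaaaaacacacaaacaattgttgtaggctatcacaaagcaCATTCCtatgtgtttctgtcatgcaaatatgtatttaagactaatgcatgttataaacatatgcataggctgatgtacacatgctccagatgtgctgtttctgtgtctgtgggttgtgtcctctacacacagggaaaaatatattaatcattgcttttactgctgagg

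The starts of Col4a6 and Col4a5 lie 1343 bases apart on chromosome X and the genes run away from each other. Col4a1 and Col4a2 are arranged the same way on chromosome 8, with 21 bases between their starts, so that their windows overlap by 78 bases. This head-to-head layout is a known feature of the type IV genes.

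Most of the family was measurable in these cells. Of the 42 genes, 34 were well above background throughout some group and 15 were so on all 27 arrays. Those 15 include Col1a1, Col1a2, Col5a1, Col4a1, Col4a2, Col4a5, Col4a6, Col7a1 and Col18a1. Col4a3, a chain of kidney and lung basement membrane, and Col19a1 were well above background on no array. A further 6 (Col10a1, Col17a1, Col28a1, Col6a5, Col6a6 and Col9a3) were never so on all arrays of a group and were not tested between single groups. The number of members well above background on all arrays of a group ran from 20 in untreated HE2 to 30 in DOX-treated d1 BC. Untreated HE2 replicate 1 was the dimmest array, with a 75th percentile of signal of 73.2 against 602.8 on replicate 2. The level at background differed with it: Col19a1 was at -4.77 and -8.05 on these 2 arrays. The part of this in the HE2 count was not tested.

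**Figure D1:**
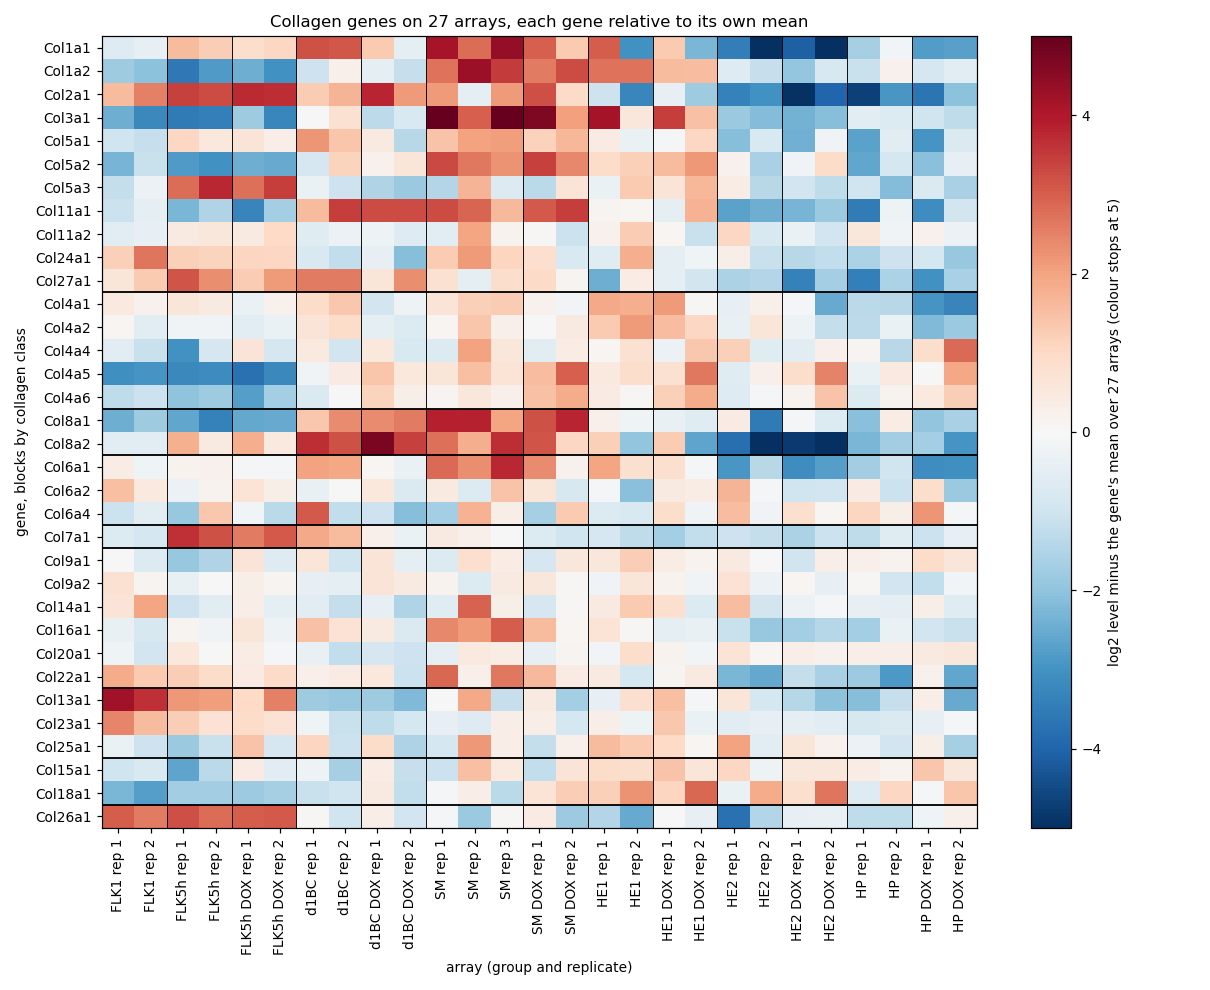
Level of each of the 34 collagen genes that stood well above background throughout some group (rows, in blocks by class) on each of the 27 arrays (columns, by population, treatment and replicate), as log2 level minus the gene's own mean over the arrays, in colour, with d1BC for d1 BC and FLK5h for FLK1+ 5h. Fibril-forming chains such as Col1a2, Col3a1 and Col5a2 stand above their own mean on all 5 SM arrays, and Col26a1 does so on all FLK1+ and 5 h arrays.

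The earliest step was the first 5 h of blast culture. Col7a1, the anchoring fibril chain, was at -0.30 and -0.49 on the FLK1+ arrays and at 4.03 and 3.57 in FLK1+ 5h. It rose by 4.20 on the log2 scale (SE 0.45, adjusted p = 1.04e-04), the only member whose rise there held on leaving out each array in turn. Col5a3, a minor fibrillar chain, was at -6.39 and -5.48 in FLK1+ cells, below background, and at -2.40 and -1.43 after 5 h. By the processing used it was at least 4.84-fold higher (adjusted p = 0.0231). With normexp background correction the difference was 1.11 on the log2 scale (adjusted p = 0.437), so the bound depends on that choice. Such a bound sets the mean of the bright group against the dim group, each dim array being taken at its own signal or at the lowest signal that counts as well above background, whichever is higher.

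Of 28 members tested over this step, 2 were called higher and 0 lower, against 2.59% and 0.247% of all genes tested. The median of the members was 0.08, beside -0.18 for all genes. Leaving out any single array of the 2 groups, whether FLK1+ replicate 1 or 2 or FLK1+ 5h replicate 1 or 2, lost Col5a3, with adjusted p up to 0.216.

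Between 5 h and d1 BC, 6 members were called, of the fibrillar chains Col11a1, Col1a2 and Col5a3, of the network chains Col8a1 and Col4a5, and Col26a1. Col8a1, a short chain of vessel walls, went from -6.60 and -7.40, below background, to -2.69 and -1.64 and was at least 7.58-fold higher (adjusted p = 0.0154). With normexp it was 1.38 higher on the log2 scale (adjusted p = 0.425), so that bound holds only for the processing used. Col11a1, a minor fibrillar chain, went from -4.57 and -3.78 to -0.72 and 1.16 (4.40, SE 0.98, adjusted p = 0.0311). Col4a5, an X-linked basement membrane chain, went from -2.51 and -2.43 to 0.55 and 1.14 (3.32, SE 0.74, adjusted p = 0.0312). Col1a2, the second chain of type I, rose by 2.83 (SE 0.62, adjusted p = 0.0284).

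Col5a3 was again at background by d1 BC, with -5.52 and -6.22, and was at least 7.27-fold lower (adjusted p = 0.0376). Col26a1, a small collagen first described in testis and ovary, fell by 3.48 (SE 0.81, adjusted p = 0.0364), from 1.95 and 1.51 to -1.21 and -2.29. So 4 members were called higher and 2 lower of 31 tested, against 0.558% and 0.882% of all genes. No call of this step held with every array left out in turn. There were 0 calls without FLK1+ 5h replicate 1 or without d1 BC replicate 2, and 1 without FLK1+ 5h replicate 2. Col1a2, Col5a3, Col8a1 and Col26a1 were no longer called with the slide as a block (adjusted p from 0.0879 to 0.145). Normexp ended the calls of Col8a1, Col4a5 (2.41, adjusted p = 0.0624) and Col5a3 (-1.52, adjusted p = 0.256). Median scaling ended those of Col11a1, Col26a1 and Col4a5 (adjusted p from 0.0518 to 0.0718). Probes that were not used gave further calls over this step, Col14a1 at -4.80 (adjusted p = 9.39e-04) against -0.08 by the probe used, Col9a1 at -4.43 against 1.5 and Col4a4 at 2.93 against 1.68, the last 2 with an adjusted p of 0.0496.

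**Figure D2:**
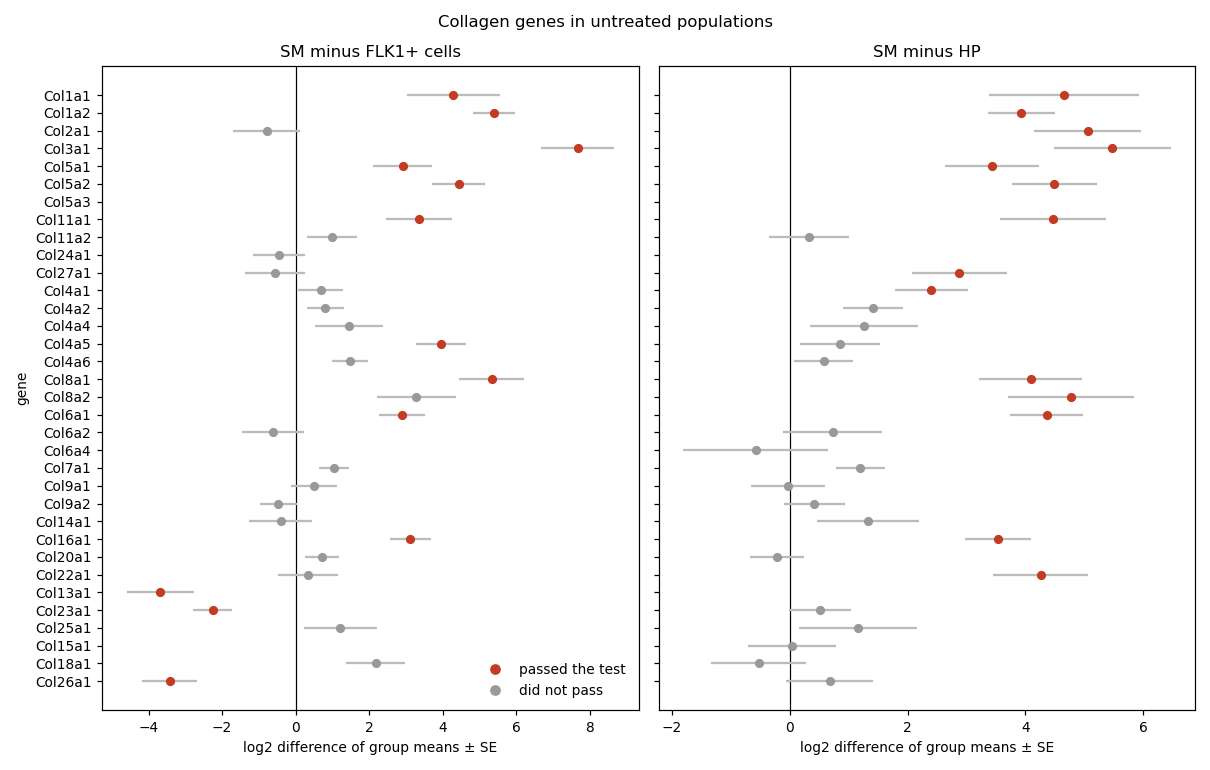
Log2 difference of group means (x axis) of each collagen gene tested (rows), for untreated SM minus FLK1+ cells on the left and untreated SM minus HP on the right, with bars of 1 SE and called genes in red. On the left 10 genes are called higher in SM and 3 lower, on the right 14 are called higher and 0 lower.

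From FLK1+ cells to SM 13 members were called, 6 of them fibril-forming chains and 7 of other classes. Col3a1, the type III chain of extensible tissues such as vessel walls, was at -3.03 and -3.81 in FLK1+ cells and at 4.68, 2.39 and 5.70 in SM, a rise of 7.68 (SE 0.99, adjusted p = 7.65e-05), although only 1 of the 2 FLK1+ arrays was well above background. Col1a2 was at 0.97 and 0.70 in FLK1+ cells and at 5.45, 7.02 and 6.22 in SM, a rise of 5.40 (SE 0.57, adjusted p = 8.11e-06). Its partner chain Col1a1, 2 copies of which join 1 of Col1a2 in type I collagen, was at 0.84 and 1.07 and then at 5.60, 4.27 and 5.87 (4.29, SE 1.27, adjusted p = 0.042). For all 3 genes every SM array lay above both FLK1+ arrays.

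Of 10 fibrillar chains tested from FLK1+ to SM, 6 were called higher and 0 lower. Besides the 3 above they were Col5a1 (2.92), Col11a1 (3.35) and Col5a2, the type V partner of Col5a1. By the processing used Col5a2 was at least 6.28-fold higher, but with normexp it was at 1.45 (adjusted p = 0.0711) and not called. Outside the fibrillar class, Col8a1 was at least 10.6-fold higher (adjusted p = 7.28e-04), Col4a5 rose by 3.95 (SE 0.68), Col16a1, a FACIT, by 3.12 (SE 0.56) and Col6a1 by 2.90 (SE 0.62). Under the other settings Col8a1 was as low as 2.15 on the log2 scale, still called. The 3 that fell were Col13a1 and Col23a1, both transmembrane collagens, by 3.68 and 2.26, and Col26a1 by 3.43. Col13a1 was well above background on only 1 of the 3 SM arrays, its difference was -1.55 with normexp background correction, and its call was lost without FLK1+ replicate 1, FLK1+ replicate 2 or SM replicate 3 (adjusted p up to 0.168). The other Col16a1 probes gave 2.44 (adjusted p = 0.127) and 1.46 (adjusted p = 0.282), so its call rests on the probe used. Of the other Col23a1 probes one gave -2.98 (adjusted p = 0.00846) and one -2.03 (adjusted p = 0.227).

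In this comparison 10 of 31 members were thus called higher and 3 lower, where 5.69% and 2.52% of all genes were, and the median of the members was 1.04 beside 0.02. Without untreated SM replicate 2, the array with high endothelial markers, 11 genes were called. Of the 13 calls, 6 held with each array left out in turn (Col1a2, Col3a1, Col4a5, Col5a2, Col8a1 and Col16a1), and 7 genes were called without FLK1+ replicate 1 and 8 without FLK1+ replicate 2. A slide block ended the calls of Col13a1 (adjusted p = 0.0987) and Col26a1 (adjusted p = 0.0623). Median scaling ended those of Col1a1, Col5a1, Col6a1 and Col11a1 (adjusted p from 0.0892 to 0.114). A replicate block ended those of Col1a1, Col5a1 and Col13a1. Unused probes gave calls for Col14a1 (-2.37 against -0.41 by the probe used), Col4a4 (2.71 against 1.46) and Col8a2 (2.35 against 3.29). Smooth muscle cells and fibroblasts both make fibrillar collagens, and of 8 fibroblast and feeder markers tested from FLK1+ to SM, 3 were called higher (Postn, Lum and Dcn) and 2 lower (Thy1 and Pdgfra). Their part in the collagen values was not tested.

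**Figure D3:**
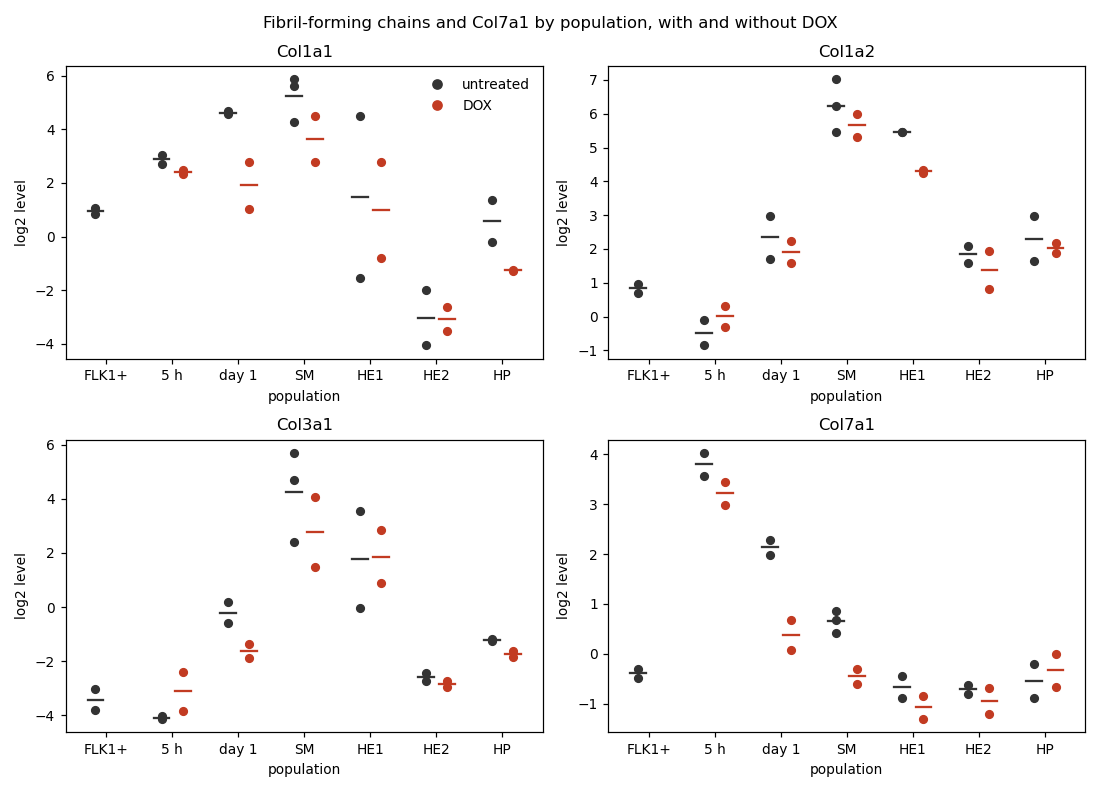
Level (log2 signal relative to each array's 75th percentile) of Col1a1, Col1a2, Col3a1 and Col7a1 in each population, with each array as a point, the group mean as a bar, untreated arrays in black and DOX-treated ones in red. Col1a2 and Col3a1 are highest in SM, the HE1 replicates of Col1a1 lie 6.06 apart, and Col7a1 is highest after 5 h and lower with DOX in d1 BC.

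From d1 BC to SM, 1 of 29 members was called higher and 0 lower, against 0.212% and 0.0303% of all genes. It was Col1a2, which went from 1.71 and 2.98 to the SM levels given above (3.89, SE 0.57, adjusted p = 0.00663). Without d1 BC replicate 1 its difference was 3.25 (adjusted p = 0.104) and 0 genes were called, and 2 were called without SM replicate 2. With the slide as a block it was 3.30 (adjusted p = 0.051).

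Col1a2 also rose from d1 BC to HE1, to 5.45 and 5.46 (3.11, SE 0.62, adjusted p = 0.00887). Col7a1 fell by 2.81 over that step (SE 0.45, adjusted p = 0.00222), from 2.28 and 1.99 to -0.45 and -0.89. Col27a1, a fibrillar chain of cartilage, fell by 3.64 (SE 0.88, adjusted p = 0.0295), from -0.65 and -0.63 to -5.70 and -2.86, where 1 of the 2 HE1 arrays was well above background. Its call was lost without d1 BC replicate 1, d1 BC replicate 2 or HE1 replicate 1, with differences from -5.06 to -2.22 over the arrays left out, and with normexp, which gave -0.81 (adjusted p = 0.28). These 3 were the calls among 30 members, 1 higher and 2 lower, against 1.83% and 1.3% of all genes. The fall of Col7a1 held with each array left out in turn, and 1 gene was called without d1 BC replicate 1. With the slide as a block all 3 calls were lost, with Col7a1 at -2.37 (adjusted p = 0.0727), Col1a2 at 2.24 (adjusted p = 0.208) and Col27a1 at -3.24 (adjusted p = 0.226), and Col18a1 was called instead.

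SM was compared directly with HE1, since both arise in these cultures. Of 30 members, 0 were called by limma, against 0.342% higher and 0.226% lower among all genes, while 14 had an unadjusted p under 0.05 and the lowest adjusted p was 0.0838. The median of the members was 1.05 beside -0.03, and 4 of 9 fibrillar chains had SM arrays that all lay above both HE1 arrays, as 13.7% of all genes did. Col16a1 had the lowest p, with 1.52, 1.25 and 2.15 in SM and -0.22 and -0.85 in HE1, while its other probes differed by 1.69 and 0.19. Col18a1 leaned the other way, at 4.87, 5.25 and 3.57 in SM and 6.10 and 7.16 in HE1 (-2.06, SE 0.81, adjusted p = 0.36). There were 2 calls without SM replicate 2 and 1 without HE1 replicate 1.

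The HE1 replicates differed widely in some fibrillar chains. Untreated HE1 was at 4.51 and -1.55 for Col1a1, at 3.56 and -0.02 for Col3a1 and at -0.08 and -3.24 for Col8a2. The same order was seen with DOX, at 2.79 and -0.80 for Col1a1 and 2.85 and 0.87 for Col3a1. Col1a2 did not share it, being at 5.45 and 5.46. Of the 9 fibroblast and feeder markers, 5 were higher in untreated HE1 replicate 1 and 4 lower. Postn was at 2.62 and -0.85, Dcn at 0.72 and -2.87 and Lum at 0.93 and -6.18, while Prrx1 was at -5.35 and -2.88 and Fap at -4.49 and -3.76. Their part in the collagen values was not tested. The range of 6.06 for Col1a1 compares with a median range of 0.81 for the family in that group.

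From HE1 to HE2 the fibrillar chains Col1a2 and Col3a1 and the beaded filament chain Col6a1 were called lower. Col1a2 fell by 3.61 (SE 0.62, adjusted p = 0.00365), to 2.10 and 1.59. Col6a1 fell by 3.53 (SE 0.68, adjusted p = 0.00711), from 0.60 and -0.54 to -4.26 and -2.74, with 1 of the 2 HE2 arrays well above background. It was not called with normexp (-1.62, adjusted p = 0.223), with median scaling (-3.34, adjusted p = 0.071) or with the 2 groups alone. Col3a1 fell by 4.37 (SE 1.09, adjusted p = 0.0373), from 3.56 and -0.02 to -2.44 and -2.75. Its call was lost in 5 of 11 other settings, among them normexp (-3, adjusted p = 0.111) and median scaling (-4.17, adjusted p = 0.121). Those were the 3 calls among 27 members, where 0.529% of all genes were called higher and 1.81% lower. Of 6 fibroblast and feeder markers tested over the same step, 3 were called lower and 0 higher (median -2.38), and their part in the collagen values was not tested.

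Short of a call, both HE2 arrays lay below both HE1 arrays in 16 of the 27 members and above them in 0, where 16.1% and 16% of all genes did so. The median difference was -0.85 beside 0.04. Without HE1 replicate 1, the array with the higher mean of fibroblast markers, 0 genes were called: Col1a2 was at -3.61 (adjusted p = 0.0593), Col6a1 at -2.96 (adjusted p = 0.152) and Col3a1 at -2.58 (adjusted p = 0.453). Without HE1 replicate 2 there were 5 calls, and without HE2 replicate 1 there was 1.

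Counts of members whose groups did not overlap, called or not, were also read against all genes. From FLK1+ to 5 h, 11 of 28 members lay wholly higher and 12 wholly lower, where 25.7% and 33.3% of all genes did. From 5 h to d1 BC the counts were 16 and 11 of 31, beside 21.6% and 23.9%, and from FLK1+ to SM they were 15 and 3 of 31, beside 22.4% and 24.6%. From d1 BC to SM they were 7 and 2 of 29, beside 13.4% and 9.85%, and from d1 BC to HE1 they were 12 and 10 of 30, beside 29.7% and 29.9%. In SM against HE1, 9 of 30 were wholly higher in SM and 2 lower, beside 13.7% and 10.5%. In SM against HP, 18 of 31 were wholly higher in SM and 0 lower, beside 15.6% and 16%. Higher members thus outnumbered lower ones in each of the comparisons of untreated SM with another untreated population. These comparisons share the same 3 SM arrays and so are not independent. Their counts also include members that were tested only because they were well above background in SM.

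From HE2 to HP no member was called by limma, 0 of 25, against 0.00395% higher and 0% lower among all genes. Here 2 members had an unadjusted p under 0.05 and the lowest adjusted p was 0.749. The groups did not overlap in 4 members higher in HP and 2 lower, beside 15.4% and 14.8% of all genes.

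HP cells, which float and no longer adhere to matrix, were set against SM. Of 31 members 14 were higher in SM and 0 lower, against 6.21% and 3.12% of all genes tested, and the median was 1.33 beside -0.14. Other markers were also called higher in SM, 7 of 9 of the fibroblast and feeder list (median 4.38) and 3 of 4 pluripotency markers tested (median 3.99), and their part in the collagen values was not tested. Of 9 fibrillar chains tested 8 were called. Col3a1 was at -1.17 and -1.27 in HP, below SM by 5.48 (SE 0.99, adjusted p = 0.00103). Col2a1, the cartilage fibril chain, was at 0.56, -2.01 and 0.59 in SM and -6.23 and -4.46 in HP, a difference of 5.06 (SE 0.91, adjusted p = 9.32e-04). Col1a1 differed by 4.66 (SE 1.27) and Col5a2 by 4.49 (SE 0.72). For Col2a1, Col5a2, Col8a1, Col11a1, Col22a1 and Col27a1 only 1 of the 2 HP arrays was well above background. Under the other settings that tested them the difference of Col2a1 was as low as 2.19 and that of Col5a2 1.56, both still called. Col27a1 was as low as 0.87 and lost its call in 6 of 10 settings, and Col8a1, Col11a1 and Col22a1, as low as 1.95, 2.48 and 2.08, lost theirs in 1 each.

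Of the other classes, Col8a2 differed by 4.77 (SE 1.07), Col6a1 by 4.36 (SE 0.62), Col22a1, a FACIT, by 4.26 (SE 0.81) and Col8a1 by 4.09 (SE 0.88). Col4a1, one of the most widespread basement membrane chains, was at 4.08, 4.62 and 4.72 in SM and at 2.08 and 2.06 in HP, a difference of 2.40 (SE 0.62, adjusted p = 0.0161). Its call was lost in 3 of 11 other settings, among them median scaling (2.06, adjusted p = 0.101). The remaining calls were Col11a1, Col1a2, Col16a1, Col5a1 and Col27a1, at 2.88 to 4.47. Of the 14 calls, 7 held with each array left out in turn (Col1a2, Col2a1, Col3a1, Col5a2, Col6a1, Col16a1 and Col22a1). Without HP replicate 1, 7 genes were called. The calls of Col8a2 and Col16a1 rest on the probe used, since the other Col8a2 probe gave 0.77 (adjusted p = 0.645) and the other Col16a1 probes 3.05 (adjusted p = 0.0522) and 1.52 (adjusted p = 0.368).

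DOX gave no called member in any single population. The numbers tested were 30 for FLK1+ 5h and d1 BC, 29 for SM and HE1, 23 for HE2 and 25 for HP, with 0 called by limma in each. An unadjusted p under 0.05 was found for 1 member in FLK1+ 5h, 5 in d1 BC, 4 each in SM and HP, and 2 each in HE1 and HE2. Calls were few over all genes too. The shares called higher were 0.00421% in FLK1+ 5h, 0.0042% in SM and 0.00398% in HP, the shares called lower were 0.0042% in SM and 0.0358% in HP, and all the others were 0%. Arrays were also simulated for the SM comparison, with each gene's spread pooled over all 13 groups. The test recovered 0% of genes changed by 1 on the log2 scale, the size of many differences given below. It recovered 28% of those changed by 2 and 60% of those changed by 3, with 6 false calls among 23558 genes. The real SM arrays were more spread. Their median range over all genes was 1.32 untreated (3 arrays) and 1.1 with DOX, against 0.49 to 1 in the other groups. The 15 interaction contrasts, each setting the DOX effect of one population against that of another, called 0 of 26 to 33 members by limma, and 0% of all genes. Their lowest adjusted p was 0.386, and 0 to 3 members in each had an unadjusted p under 0.05.

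In d1 BC the DOX-treated pair lay wholly below the untreated pair for 9 of 30 members and wholly above it for 5, where 9.77% and 18.4% of all genes did so. Col7a1 was at 2.28 and 1.99 untreated and at 0.67 and 0.08 with DOX (-1.76, SE 0.45, unadjusted p = 0.00102, adjusted p = 1). Col6a1 was at 0.64 and 0.59 untreated and at -1.25 and -1.70 with DOX (-2.09, SE 0.68). Col5a1 was at 5.62 and 4.80 untreated and at 3.86 and 2.04 with DOX (-2.26, SE 0.87). Col1a1 was at 4.68 and 4.57 untreated and at 2.79 and 1.04 with DOX (-2.71, SE 1.39).

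In the same cultures Col3a1 differed by -1.42 and Col16a1 by -1.23, while Col1a2 overlapped, at 1.71 and 2.98 untreated and 2.25 and 1.59 with DOX. Over the other settings, which include another of its probes, the Col16a1 difference ran from -1.28 to -0.43. The groups were separate and higher with DOX for Col2a1 (1.5), Col4a6 (1.05) and Col9a2 (1.01), a FACIT of cartilage, and also for Col4a5 and Col8a1. Col2a1 was at -0.30 and 0.13 untreated and at 2.26 and 0.56 with DOX. Over the other settings, which include its other probe, the Col4a6 difference ran from 0.60 to 1.05.

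The same counts were made in the other populations. In SM 3 of 29 lay higher with DOX and 3 lower, against 4.47% and 6.02% of all genes. In HE1 4 of 29 lay higher and 6 lower, against 8.74% and 8.33%. In HE2 4 of 23 lay higher and 1 lower, against 20.4% and 14.3%. In HP 7 of 25 lay higher and 5 lower, against 25.6% and 12.5%. In FLK1+ 5h 8 of 30 lay higher and 7 lower, against 18.5% and 16.3%. The median difference of the family in SM was -0.45, beside 0.09 for all genes.

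In SM, Col16a1 was at 1.52, 1.25 and 2.15 untreated and 0.69 and -0.80 with DOX (-1.69, SE 0.56), and Col7a1 at 0.86, 0.67 and 0.42 untreated and -0.30 and -0.61 with DOX (-1.1, SE 0.41). Without DOX-treated SM replicate 2, the Col16a1 difference was -0.95, and by another of its probes it was -0.91. Col1a2 in HE1 was at 5.45 and 5.46 untreated and at 4.33 and 4.26 with DOX (-1.16, SE 0.62). All of these had adjusted p-values of 0.999 or 1.

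**Figure D4:**
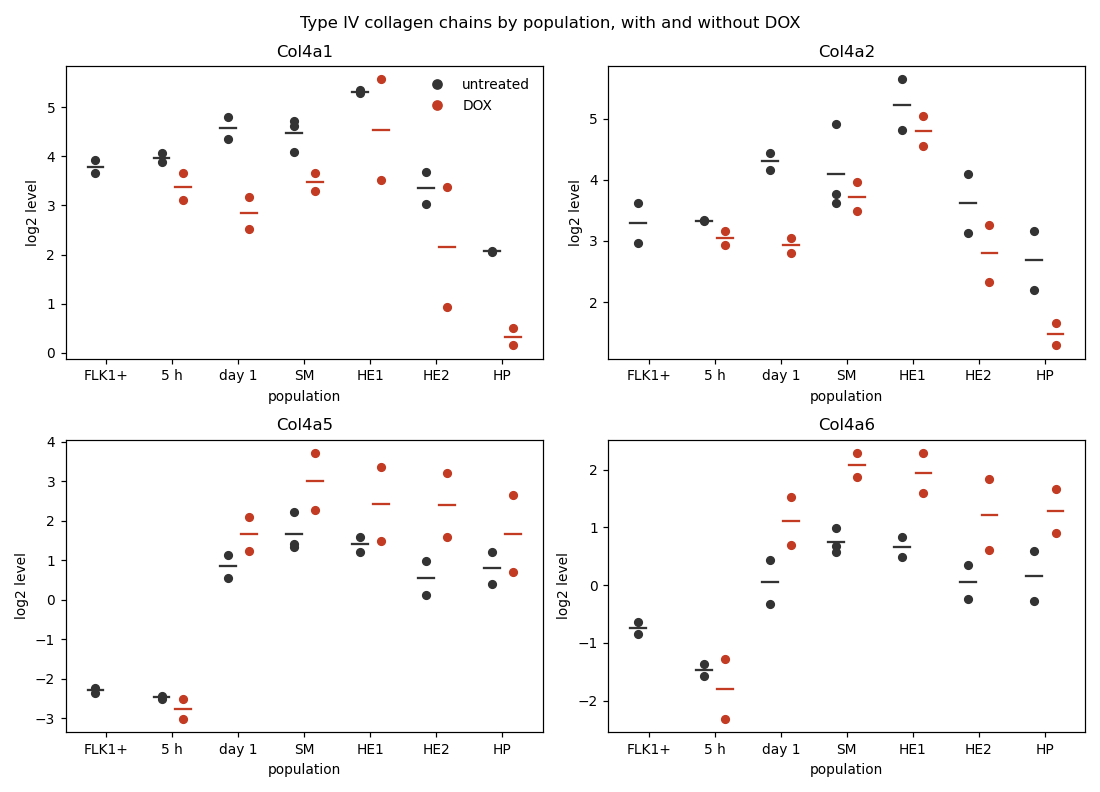
Level (log2 signal relative to each array's 75th percentile) of Col4a1, Col4a2, Col4a5 and Col4a6 in each population, with each array as a point, the group mean as a bar, untreated arrays in black and DOX-treated ones in red. The DOX mean of Col4a1 and Col4a2 is the lower one in all 6 populations, with overlapping arrays in HE1 and HE2 and, for Col4a2, in SM. That of Col4a5 and Col4a6 is the higher one in all but FLK1+ 5h, with overlapping arrays of Col4a5 in HE1 and HP.

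Within the basement membrane class the paired genes leaned opposite ways with DOX. Col4a1 was at 4.36 and 4.80 in untreated d1 BC and 2.51 and 3.18 with DOX, and at 2.08 and 2.06 in untreated HP and 0.51 and 0.15 with DOX. Those differences were -1.73 and -1.74 (SE 0.68 each), and in SM it was -1.0. In HE1 and HE2 the arrays overlapped, at 5.34 and 5.28 against 5.57 and 3.52, and at 3.03 and 3.69 against 3.37 and 0.94.

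Its partner Col4a2 followed it, with differences of -1.38 in d1 BC and -1.22 in HP (SE 0.56 each). Over the 13 group means, Col4a1 and Col4a2 correlated with r = 0.941. Outside the family the genes most like Col4a1 over those means were Hyal1 (0.954), Tanc1 (0.937), Crmp1 (0.936), Nrp2 (0.912) and Ehd2 (0.906). These are descriptions over 13 points that share arrays, with no test.

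Col4a5 and Col4a6, whose chains are found together in smooth muscle and some epithelia, correlated with each other at r = 0.96 and Col4a5 with Col4a1 at -0.13. Col4a6 was at 0.57, 0.98 and 0.68 in untreated SM and 1.87 and 2.29 with DOX, at 0.84 and 0.49 in untreated HE1 and 1.60 and 2.28 with DOX, and at -0.24 and 0.34 in untreated HE2 and 0.60 and 1.83 with DOX. In HP it was at -0.27 and 0.59 untreated and 0.90 and 1.66 with DOX. In each of these 4 populations every DOX array lay above every untreated one.

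The DOX difference of Col4a6 was 1.34 in SM (SE 0.50), 1.27 in HE1, 1.16 in HE2 and 1.12 in HP (SE 0.55 each), against -0.33 in FLK1+ 5h. Its other probe, also well above background on all 27 arrays, gave 0.39 and 0.54 in SM and HE1 and -0.42 and -0.03 in HE2 and HP, so that the size in all of them and the direction in HE2 and HP rest on the probe used. Col4a5 differed by 0.83 in d1 BC and 1.34 in SM, where it was 0.62 without DOX-treated SM replicate 2 and 2.06 without DOX-treated SM replicate 1. In HE2 it was at 0.13 and 0.98 untreated and 1.60 and 3.22 with DOX (1.85, SE 0.74), a difference of 1.04 without DOX-treated HE2 replicate 2. The Col4a5 arrays overlapped in HE1, at 1.22 and 1.59 untreated against 1.49 and 3.35 with DOX. They did so too in HP, at 0.39 and 1.22 against 0.71 and 2.64.

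Averaged over the 4 sorted populations, the DOX difference of 32 members was tested and 0 were called by limma, against 0.0694% higher and 0.241% lower among all genes. The lowest adjusted p-values were those of Col4a6, at 1.22 (SE 0.27, adjusted p = 0.0648), Col6a1, at -1.30 (SE 0.33, adjusted p = 0.126), Col4a1, at -1.18 (SE 0.33, adjusted p = 0.18), Col4a5, at 1.27 (SE 0.36, adjusted p = 0.192), and Col26a1, at 1.30 (SE 0.40, adjusted p = 0.234). Over d1 BC, SM and HE1, 31 were tested and 0 called, against 0.0115% and 0.0691%. There Col7a1 was at -1.09 (adjusted p = 0.202) and Col6a1 at -1.60 (adjusted p = 0.205). With the slide as a block Col7a1 was at -1.13 and was called (adjusted p = 0.0449).

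Several processing choices put Col4a6 past the threshold, and blocks for the slide put other members past it too. All of these values of Col4a6 are of 1 probe, and its other probe gave a mean of 0.12 over the 4 sorted populations (SE 0.27, adjusted p = 0.872). With the slide as a block, its mean over the 4 sorted populations was 1.19 (adjusted p = 0.0248) and that of Col4a5 was 1.22 (adjusted p = 0.0238), and with the replicate number as a block Col4a6 was at 1.21 (adjusted p = 0.0449). With the slide as a random block Col4a6 (1.19, adjusted p = 0.00824), Col4a5 (1.22, adjusted p = 0.0167), Col6a1 (-1.30, adjusted p = 0.0363) and Col4a1 (-1.15, adjusted p = 0.0459) were called in that mean, and Col7a1 (-1.11, adjusted p = 0.021) and Col4a6 (1.18, adjusted p = 0.0376) in that over d1 BC, SM and HE1. In the 4-population mean 1 gene was called without DOX-treated SM replicate 1 and 2 without DOX-treated HE2 replicate 1, and in the 3-population mean 1 was called without DOX-treated SM replicate 1.

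Because groups were spread over 5 slides, DOX and untreated arrays of the same population and replicate that lay on one slide were also compared directly, in 11 pairs. Of 34 members, 1 was lower with DOX in all 11 pairs and 2 were higher, where 0.318% and 1.29% of 28010 genes were. Col6a1, the member lower in all, differed by -2.29 to -0.19 with a median of -1.36. In 9 of its pairs both arrays were well above background, and there it was lower in 9, by -2.29 to -0.29. Col4a6 and Col26a1 were higher in all, with medians of 1.17 and 1.09, although Col26a1 differed by only 0.03 to 0.47 in the 5 pairs of complete cultures and SM. Both arrays were well above background in all 11 pairs for Col4a6 and in 10 for Col26a1. Col6a1, Col16a1 and Col26a1 were singled out here after their values were seen.

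Col4a5 was higher in 10 of 11 pairs, with a median of 1.42 and the exception, -0.08, in FLK1+ 5h. So 3 of the 34 members were higher in at least 10 pairs and 1 was lower, where 5.64% and 1.64% of all genes were. Col4a1 was lower in 9 of 11, with a median of -1.57, and Col4a2 in the same 9, with a median of -0.95. The exceptions of both were replicates 1 of HE1 and HE2, at 0.23 and 0.33 for Col4a1. Col1a1, Col5a1 and Col16a1 were lower in 9 pairs each, with medians of -1.11, -0.28 and -0.81. Col18a1 and Col2a1 were higher in 9, by medians of 0.63 and 0.87, though for Col2a1 both arrays were well above background in only 7 pairs. The share of all genes at 9 pairs was not counted. For Col4a6 the other probe was higher in 8 of 11, with a median of 0.25. The other Col16a1 probes were lower in 6 and 7 of 11, with medians of -0.05 and -0.19. The pairs do not form independent replicates of a single condition, since they span 6 populations.

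**Figure D5:**
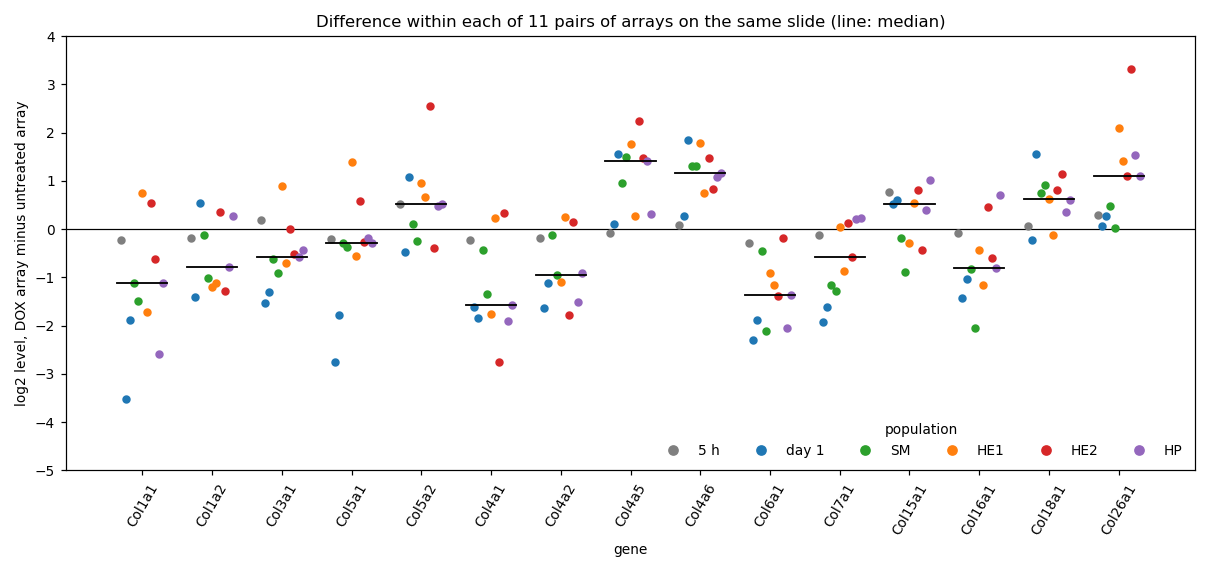
Log2 level of the DOX-treated minus the untreated array of the same slide (y axis) for named collagen genes (x axis), with each of the 11 pairs as a point coloured by population and the median as a short line. All 11 points of Col6a1 lie below 0, and all 11 of Col4a6 and Col26a1 lie above it.

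Col6a1 was tested in 5 of the 6 populations, being below that limit in HE2. It was at 1.48, 0.98 and 2.40 in untreated SM and 1.02 and -1.13 with DOX, so that the groups overlapped (-1.68, SE 0.62), and the difference was -0.60 without DOX-treated SM replicate 2 and -2.75 without DOX-treated SM replicate 1. In HE1 it was at 0.60 and -0.54 untreated and at -0.56 and -1.43 with DOX, with every DOX array lower (-1.03, SE 0.68). In HP it was at -3.10 and -2.37 untreated and -4.46 and -4.41 with DOX (-1.70, SE 0.68), with 1 of the 2 DOX arrays well above background, and the difference ran from -2.04 to -0.37 over the other settings.

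Over the 13 group means Col6a1 correlated with Col1a1 at 0.911, while Col1a1 and Col1a2 correlated at 0.345, although their products assemble into one helix. Col1a1 was higher after 5 h (3.05 and 2.71) than in FLK1+ cells (0.84 and 1.07), while Col1a2 was lower (-0.85 and -0.11 against 0.97 and 0.70), and neither difference was called.

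The endostatin family chains both had their highest untreated mean in HE1. Col18a1 was on all arrays and ran from 2.61 and 2.16 in FLK1+ cells to 6.10 and 7.16 in HE1, then 4.57 and 6.77 in HE2 and 4.25 and 5.94 in HP. With DOX its SM levels were 5.61 and 6.16, both above the untreated 4.87, 5.25 and 3.57 (1.32, adjusted p = 0.999). Col15a1 was well above background on 19 of the 27 arrays and stayed between -6.36 and -2.20 over all of them. Its untreated mean was -4.59 in FLK1+ cells, -2.82 in HE1, -3.32 in HE2 and -3.44 in HP. The 2 genes were not tested against each other.

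Genes that build, cut, cross-link and bind collagens were taken from 4 lists, of modification and folding (18 genes), processing and cross-linking (13), receptors (9 with a probe) and associated matrix (10). None was called in any of the 6 comparisons with DOX, 0 of up to 18 tested per list by limma. From FLK1+ to SM, 1 of 17, 4 of 10, 2 of 7 and 3 of 10 genes tested in these lists were called higher, against 5.69% of all genes, and Pcolce2 was the only one called lower, against 2.52%. They include Plod2, a collagen lysyl hydroxylase (3.07, SE 0.69), Loxl1, a lysyl oxidase (5.82, SE 1.63), Itga1, a collagen receptor chain (2.60, SE 0.62), and Lum (7.03, SE 1.78), a fibril-binding proteoglycan that also stands on the fibroblast list.

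Between SM and HP 5 of 17, 7 of 11, 3 of 8 and 6 of 10 genes tested in these lists were called higher in SM, against 6.21% of all genes, and 0 lower, against 3.12%. P4ha2, a proline hydroxylase that stabilizes the helix, differed by 4.36 (SE 0.52, adjusted p = 3.62e-05). Loxl2, a cross-linking oxidase, differed by 3.97 (SE 0.49, adjusted p = 4.34e-05) and Ddr1, a receptor kinase for collagen, by 5.94 (SE 1.08, adjusted p = 0.00104). From HE1 to HE2, P4ha2, Pcolce, Loxl2, Fbn1, Nid1 and Nid2 were called lower, 1 of 18, 2 of 8, 0 of 8 and 3 of 9 tested by list, against 1.81% of all genes, P4ha2 at -3.90 and Pcolce, an enhancer of procollagen cleavage, at -3.65. The medians of the lists over that step were -0.97, -2.04, -1.07 and -1.65 in the order given above, beside 0.04 for all genes.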

How the data were processed

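The authors deposited one scanner output per array, whose processed signal is an intensity, background-subtracted by Agilent Feature Extraction (10.7.1.1 in the submitters' processing notes) and not scaled between arrays. Median spot and background signals are deposited as an intensity too. The deposited log2 values, which the authors normalized with limma, served as an alternative. Here log2 processed signals were reduced by the 75th percentile of the array, outlier spots were dropped and 1 probe per gene was kept. In R 4.3.3, limma 3.58.1 (lmFit, eBayes) fitted group means to all genes on 27 arrays, with 14 residual and 4.49 prior degrees of freedom. Further tools were Python 3.11.15, numpy 2.4.6, pandas 2.3.3, matplotlib 3.10.9 and the R package data.table, version 1.17.8.

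The members and lists were chosen with earlier results of these data known. Named with values are Col1a1, Col4a1 and Col5a1, which the paper names, their partner chains, Col15a1 and Col18a1, the 3 further members with the highest mean level (Col4a5, Col4a6 and Col7a1), and the 5 largest called rises and falls per comparison. Others are named after their values were seen. Interactions were contrasts of the same fit. The fit was tested on simulated data. Alternatives changed the background correction (normexp, offset 50), scaling, filter, probe, block, samples fitted and arrays left out.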

Additional observations from a re-analysis of the deposited data

How the results depend on the processing

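With 2 arrays in most groups, calls depended on the spread assumed. No member was called for DOX in any single population, from HE2 to HP, or for a difference of the DOX effect, under any alternative or with any array left out (0 to 0 genes), and 0 at 5 h too when the replicate numbers of the DOX arrays were crossed in a block, an alternative added after the data were seen. Counts of called genes moved by over 1.5 times as follows. From FLK1+ to 5 h (2 genes), normexp and detection in both groups gave 1, as did leaving out any array (1 to 1). From 5 h to d1 BC (6), detection in both groups gave 0, the slide block 2 and the 2 groups alone 3 (0 to 4 with an array left out). From FLK1+ to SM (13), detection in both gave 8 and the 2 groups alone 7 (7 to 11). From d1 BC to SM (1), normexp, the authors' values and a random slide block gave 2, and the slide block and the 2 groups alone 0 (0 to 2). From d1 BC to HE1 (3), quantile, median and the authors' scaling gave 5, the slide block 1 and the 2 groups alone 0 (1 to 3). SM against HE1 (0) had 4 with quantile scaling, 5 with the authors' values, 1 with the slide block and 3 with a random slide block (0 to 2). From HE1 to HE2 (3), normexp, median scaling and detection in both gave 1, the slide block 5, the random block 8 and the 2 groups alone 0 (0 to 5). SM against HP (14) had 8 with detection in both and with the 2 groups alone (7 to 14). The mean DOX effect over d1 BC, SM and HE1 (0) had 1 with the slide block and 2 with the random block (0 to 1). The mean over the 4 sorted populations (0) had 1 with normexp, quantile scaling, the authors' values and the replicate block, 2 with the slide block and 4 with the random block (0 to 2). Calls of the related lists (45) became 27 with median scaling, 78 with the authors' values, 70 with the random block and 13 with the 2 groups alone. Fewer genes are tested with detection in both groups, and fewer arrays set the spread with the 2 groups alone; for the others the cause was not tested. Of 42 member calls between untreated populations, 21 were shared with detection in both groups, 18 with the 2 groups alone, 32 with the slide block and 31 to 42 with the other settings, and 15 held with each array left out in turn. Of the followed differences, 3 changed sign: Col5a2 with DOX in HE1 was -0.07 with normexp, and Col4a6 with DOX was -0.42 in HE2 and -0.03 in HP by its other probe. Median scaling moved the median DOX difference of all genes from -0.03 to -0.67 at 5 h, from 0.09 to 0.43 in SM and from 0.17 to 0.63 in HE2, and that of the family from -0.45 to -0.11 in SM and from -0.23 to 0.23 in HE2, so the family's shift has a direction only beside that of all genes. From d1 BC to HE1 the family's median changed from 0.64 to -0.09 with it. Same-numbered DOX and untreated arrays deviated together in d1 BC, SM, HE1, HE2 and HP (r from 0.26 to 0.609) and not at 5 h (-0.149), with only 2 pairs in each population. The labels do not say that a number marks a shared batch, but 11 same-numbered pairs also share a slide, which the slide block takes in. With the replicate number as a block, 37 of the 42 calls between untreated populations were shared, and in the means over populations the block added only Col4a6 (1.21, adjusted p = 0.0449).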
